A study of Homo sapiens with 48 samples.

Results

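The BCL2 family of apoptosis regulators was read across 16 groups of H1975 cells, an established line from a human lung adenocarcinoma that carries a mutated EGFR gene. The members were the rows of the count table for 10 symbols out of 27978: the BH3-only genes BCL2L11, PMAIP1, BBC3, BMF and BID, the effector genes BAX and BAK1, and the anti-apoptotic genes BCL2, BCL2L1 and MCL1. All 10 were found, and all 10 were among the 15789 genes that passed the filter on low counts.

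The family decides whether the outer mitochondrial membrane stays intact. BAX and BAK1 encode the proteins that form pores in it, the anti-apoptotic proteins hold them back, and BH3-only proteins bind the anti-apoptotic proteins or the effectors directly when a cell is stressed or loses growth factor signalling. In lung cancer cells with an activating EGFR mutation, BIM, the product of BCL2L11, is known as a mediator of cell death after EGFR kinase inhibition. Much of the control of BIM, MCL1 and BID takes place on the protein, which RNA counts do not measure.

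RNA was sequenced from 48 libraries, 3 per group, which the submitters describe as biological replicates; cultures, passages and batches were not given. Treated cells were taken at 24 h after gefitinib, an EGFR kinase inhibitor, at 50 or 75 µM, after CKI, compound kushen injection, at 1 or 2 mg/mL, after YFSJ, a preparation named only by these letters, at 2.5 or 5 mg/mL, or after any dose of gefitinib together with any dose of either preparation. Untreated cells were taken at 24 h and at 0 h, and are meant below as the 24 h group unless 0 h is named. All groups are of 1 cell line in medium with 10% serum, and no vehicle group was named.

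Totals ran from 16428398 to 26264162 counts per library. The labels give a catalogue number that belongs to the breast line MCF-7. NKX2-1, a lung lineage gene, had a median of 44.7 CPM (counts scaled to a common library total), the breast hormone receptor genes ESR1 and PGR had 0.125 and 0 CPM, and 8 of 12 lung lineage, 2 of 10 luminal breast, 1 of 8 blood cell and 3 of 8 fibroblast markers reached a median of 1 CPM. Of the lung list NKX2-1, FOXA2, SFTA3 and NAPSA reached it, as did KRT7, KRT18, EPCAM and CDH1, which are general epithelial genes and not particular to lung. SFTPB, SFTPC, SFTPA1 and SCGB1A1 did not, with medians of 0 to 0.0431 CPM. In 10 libraries ALB, the serum albumin gene, had 2581 to 3557 counts, against 0 to 8 in the other 38, and 18 of 20 liver markers were above every other library; the summed liver counts were 5732 to 7881 in these 10 and 908 to 2701 elsewhere. The set took in every library given 2.5 mg/mL YFSJ alone and every one given 2 mg/mL CKI and 75 µM gefitinib, with 2 of 3 in the pairing of 2 mg/mL CKI and 50 µM gefitinib, and 2 of 3 where 1 mg/mL CKI met 75 µM gefitinib. At 0 h, libraries 1 and 2 stood apart, with 1.22% and 1.69% of counts in mitochondrial RNR2 against 0.457% in library 3. The highest RNR2 share of all, 2.18%, was in library 2 of the pairing of 2.5 mg/mL YFSJ and 75 µM gefitinib.

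Among the 10 members, the 4 BH3-only genes whose RNA moved most were BBC3 and BMF, which led the response to gefitinib, and BCL2L11 and PMAIP1, which led the addition of CKI to gefitinib. Their promoter windows, from 250 bases before to 50 after the RefSeq start site listed first for each gene (GRCh38.p14), are shown so that the start regions of the responding genes can be read side by side. Capitals mark matches to 4 motifs searched on both strands: CACGTG (the E-box), TGACGT (the core of the cyclic AMP response element), TGTTTAC (a forkhead factor motif) and TTGCATCA (a composite motif of ATF4 and C/EBP).
BBC3, chr19:47232618-47232917, minus strand: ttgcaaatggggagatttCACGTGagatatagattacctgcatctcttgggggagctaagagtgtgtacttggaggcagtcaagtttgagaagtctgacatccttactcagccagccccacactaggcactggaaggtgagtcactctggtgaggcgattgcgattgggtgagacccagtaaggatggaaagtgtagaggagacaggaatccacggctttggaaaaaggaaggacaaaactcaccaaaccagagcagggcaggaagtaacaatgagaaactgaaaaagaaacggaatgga
BMF, chr15:40108830-40109129, minus strand: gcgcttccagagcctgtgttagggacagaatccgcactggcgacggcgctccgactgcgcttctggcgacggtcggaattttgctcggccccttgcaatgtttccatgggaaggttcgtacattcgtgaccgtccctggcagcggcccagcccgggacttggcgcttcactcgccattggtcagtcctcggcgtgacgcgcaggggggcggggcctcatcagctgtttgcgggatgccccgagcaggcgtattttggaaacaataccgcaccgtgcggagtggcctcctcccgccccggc
BCL2L11, chr2:111120664-111120963, plus strand: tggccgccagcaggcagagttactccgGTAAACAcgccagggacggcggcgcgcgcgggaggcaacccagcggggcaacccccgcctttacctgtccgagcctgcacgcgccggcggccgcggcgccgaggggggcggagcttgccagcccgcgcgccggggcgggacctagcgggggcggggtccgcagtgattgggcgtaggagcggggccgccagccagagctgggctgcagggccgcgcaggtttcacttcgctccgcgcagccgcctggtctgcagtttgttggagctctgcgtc
PMAIP1, chr18:59899746-59900045, plus strand: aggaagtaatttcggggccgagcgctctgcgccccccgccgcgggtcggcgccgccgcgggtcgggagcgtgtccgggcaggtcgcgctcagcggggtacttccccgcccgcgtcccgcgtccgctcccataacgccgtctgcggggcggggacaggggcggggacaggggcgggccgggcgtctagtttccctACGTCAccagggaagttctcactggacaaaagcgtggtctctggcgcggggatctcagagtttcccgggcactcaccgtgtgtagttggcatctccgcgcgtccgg

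The BBC3 window held CACGTG at -232 from the start site, the BCL2L11 window held the forkhead motif on the opposite strand at -223, and the PMAIP1 window held the response element core on the opposite strand at -56. The BMF window held no match. Of 35116 windows of this length, 7.26% held CACGTG, 7.98% TGACGT, 3.42% TGTTTAC and 0.866% TTGCATCA. Windows were found for 9 of 10 members, 15 windows in all. BAX, whose RNA passed no comparison of a treatment with untreated cells, held CACGTG at 4 positions, -138, -93, -45 and -14. A match is a description of these letters and was not tested as a binding site.

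Levels of different genes are compared per kilobase of their merged exons. In untreated cells at 24 h BAX stood highest at 102.8 CPM per kb, followed by MCL1 at 80.2, PMAIP1 at 29.1, BCL2L1 at 27.6, BAK1 at 21.5 and BID at 11.9. The remaining BH3-only genes were low, with BBC3 at 4.29, BCL2L11 at 2.85 and BMF at 1.19 CPM per kb. BCL2, the founding anti-apoptotic gene, was lowest at 0.145 CPM per kb and had 15 to 76 counts per library, so its changes were measured least precisely. Counts per symbol do not separate isoforms, and so not the long and short products of BCL2L1 and MCL1 or the splice forms of BIM.

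Gefitinib alone raised BBC3 and BMF, lowered BCL2L1 and raised MCL1 at both doses, while no change of BCL2L11 passed the test. BBC3 encodes PUMA, a BH3-only protein that binds all the main anti-apoptotic proteins. It had 65.8, 60.1 and 77.8 CPM at 75 µM, against 7.75, 9.02 and 10.1 CPM in untreated cells. Every treated library was far above every untreated one, a log2 fold change of 2.92 ± 0.22 (SE here and below; adjusted p = 8.79e-14), or 7.58-fold. At 50 µM its libraries had 69.0, 75.4 and 47.3 CPM, and the log2 fold change was 2.83 ± 0.22 (adjusted p = 1.91e-13).

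BMF encodes a BH3-only protein that in resting cells is held at the cytoskeleton. Its libraries had 19.0, 16.8 and 17.6 CPM at 75 µM, against 5.88, 5.09 and 6.51 CPM in untreated cells, without overlap, a log2 fold change of 1.61 ± 0.16 (adjusted p = 1.01e-11). The change at 50 µM was 1.76 ± 0.16 (adjusted p = 5.08e-13). BCL2L11 had 18.1, 18.6 and 16.1 CPM at 75 µM and 18.8, 16.6 and 16.8 CPM in untreated cells. The groups overlapped, and the log2 change of 0.02 had a 95% interval from -0.23 to 0.27 (adjusted p = 0.918); at 50 µM it was 0.13, from -0.12 to 0.38.

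BCL2L1, the gene of BCL-XL, fell by 0.27 ± 0.09 at 75 µM (adjusted p = 0.0108) and by 0.32 ± 0.09 at 50 µM (adjusted p = 0.00274). MCL1, whose protein is short-lived, rose by 0.22 ± 0.08 (adjusted p = 0.0111) and 0.27 ± 0.08 (adjusted p = 0.00235) at the same doses. At 75 µM the BCL2L1 call was lost without library 3 of that group (-0.22, adjusted p = 0.0798) and with scaling by library totals (-0.18, adjusted p = 0.104), and both calls were lost without library 3 of the untreated group (-0.23, adjusted p = 0.0557 for BCL2L1, and 0.19, adjusted p = 0.0586 for MCL1). The other 5 members ranged from -0.22 for BID to 0.33 for BCL2 at 75 µM and were not called, though in a fit of only the libraries compared PMAIP1 (-0.21, adjusted p = 0.0328) and BID (-0.24, adjusted p = 0.0268) passed. In all 4 of 10 members were called at each dose, against 54.7% of all genes at 75 µM (27.6% higher and 27.1% lower) and 54.4% at 50 µM, and the median size of a member's change at 75 µM was 0.22, against 0.44 over all genes. Between 75 and 50 µM, 0 of 10 members were called by edgeR, 0 had an unadjusted p under 0.05 and 0 were called by DESeq2 (0.0317% of all genes called by edgeR), with 95% intervals reaching from -0.45 to 0.99.

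**Figure D1:**
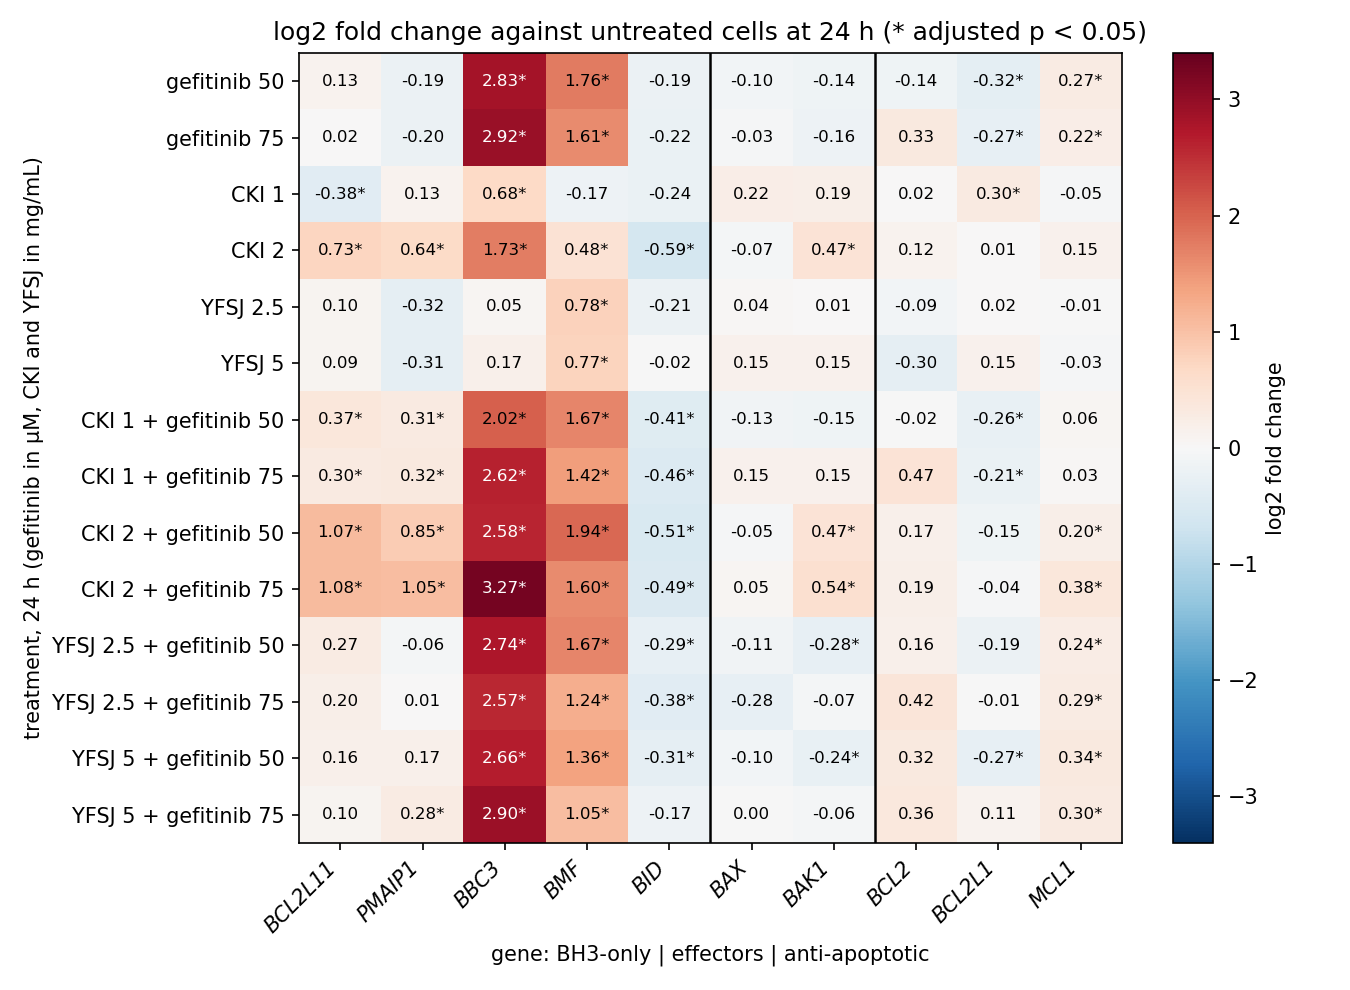
Log2 fold change of each member (columns, ordered as BH3-only, effector and anti-apoptotic genes) in each treated group against untreated cells at 24 h (rows, 3 libraries per group), with stars at adjusted p under 0.05. BBC3 and BMF are high in all 10 rows with gefitinib, from 2.02 to 3.27 and from 1.05 to 1.94, while BCL2L11, PMAIP1 and BAK1 are highest in rows with 2 mg/mL CKI.

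CKI at 2 mg/mL changed 6 members, against 51.2% of all genes (24.1% higher and 27.1% lower). These were 4 BH3-only genes and BAK1, which rose, and BID, which fell. BBC3 had 27.4, 37.2 and 24.2 CPM with CKI, against 7.75, 9.02 and 10.1 CPM in untreated cells, a rise of 1.73 ± 0.22 without overlap (adjusted p = 4.19e-08). BCL2L11 had 30.9, 23.0 and 32.9 CPM, against 18.8, 16.6 and 16.8 CPM in untreated cells, with the lowest CKI library above the highest untreated one (0.73 ± 0.12, adjusted p = 2.2e-06). PMAIP1 encodes NOXA, a BH3-only protein that binds chiefly MCL1.

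PMAIP1 had 106, 83.2 and 97.0 CPM with 2 mg/mL CKI, against 64.8, 61.7 and 56.9 CPM in untreated cells. The groups did not overlap, and the rise was 0.64 ± 0.12 (adjusted p = 1.24e-05). BMF rose by 0.48 ± 0.17 (adjusted p = 0.0131), a call lost without library 2 of the untreated group (0.40, adjusted p = 0.069) or library 3 of the CKI group (0.41, adjusted p = 0.0665). BID, whose protein is cut by caspase 8 and carries death receptor signals to mitochondria, had 21.9, 23.3 and 21.5 CPM, against 33.5, 33.3 and 33.8 CPM in untreated cells. It was the member that fell, by 0.59 ± 0.12 (adjusted p = 4.72e-05).

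BCL2L11 lies opposite MIR4435-2HG, a long non-coding RNA gene with overlapping exons, and the libraries carry no strand. MIR4435-2HG, with 812 to 1634 counts per library, moved the other way with 2 mg/mL CKI, falling by 0.47 ± 0.08 (adjusted p = 7.39e-06), and it fell by 0.64 ± 0.08 with 75 µM gefitinib (adjusted p = 1.16e-08). BMF also lies opposite an antisense gene, BMF-AS1, which was not analysed here, and BCL2L1 opposite ABALON, which had 6 to 29 counts per library. BAK1 lies opposite GGNBP1, with 29 counts over all libraries. Reads from such pairs cannot be told apart without strand.

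At 1 mg/mL CKI changed 3 members (27.9% of all genes). BCL2L11 fell, with 12.2, 12.1 and 15.8 CPM against 18.8, 16.6 and 16.8 CPM in untreated cells, by 0.38 ± 0.12 (adjusted p = 0.0200). BBC3 rose by 0.68 ± 0.23 (adjusted p = 0.0227) and BCL2L1 by 0.30 ± 0.09 (adjusted p = 0.0109). These calls were less stable than those at 2 mg/mL: without library 2 of the 1 mg/mL group BCL2L11 was at -0.31 (adjusted p = 0.107), BBC3 at 0.48 (adjusted p = 0.165) and BCL2L1 at 0.25 (adjusted p = 0.0662), while BID passed there (-0.37, adjusted p = 0.0274). Without library 1 of the untreated group BCL2L11 was at -0.31 (adjusted p = 0.101) and BBC3 at 0.58 (adjusted p = 0.103). BCL2L11 also lost its call without library 1 of the 1 mg/mL group (-0.32, adjusted p = 0.0968), BBC3 without library 2 of the untreated group (0.69, adjusted p = 0.0537), and BCL2L11 with scaling by library totals (-0.29, adjusted p = 0.119).

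Set directly against 1 mg/mL, the 2 mg/mL dose changed 8 members (32.7% of all genes). BCL2L11 showed the largest difference, 1.11 ± 0.12 higher at 2 mg/mL (adjusted p = 2.4e-09), followed by BBC3 at 1.05 ± 0.21 (adjusted p = 0.00021), BMF at 0.65 ± 0.16 and PMAIP1 at 0.52 ± 0.12. BAK1 (0.28) and MCL1 (0.20) were also higher at 2 mg/mL, and BID (-0.36) and BCL2L1 (-0.29) lower. Each of these last 4 lost its call without at least 1 library of either group. Without library 2 of the 1 mg/mL group all 4 did, with BAK1 at 0.27 (adjusted p = 0.0606), MCL1 at 0.16 (adjusted p = 0.166), BID at -0.22 (adjusted p = 0.199) and BCL2L1 at -0.24 (adjusted p = 0.0728).

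YFSJ alone changed BMF. Its libraries had 10.4, 9.46 and 10.1 CPM at 5 mg/mL, against 5.88, 5.09 and 6.51 CPM in untreated cells, without overlap, a rise of 0.77 ± 0.16 (adjusted p = 0.00203). At 2.5 mg/mL they had 9.23, 9.82 and 11.0 CPM, a rise of 0.78 ± 0.16 (adjusted p = 0.00313). All libraries of that lower dose are of the ALB set, and with a term for that set the change was 0.56 (adjusted p = 0.321). The set held 0 of the 3 libraries at 5 mg/mL.

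PMAIP1 was at -0.31 (95% interval -0.55 to -0.07, adjusted p = 0.105) at 5 mg/mL and at -0.32 (-0.56 to -0.08, adjusted p = 0.141) at 2.5 mg/mL. Its libraries did not overlap with the untreated ones at either dose, but neither change passed. Without library 3 of the 0 h group, which enters the shared estimate of spread, it passed at 5 mg/mL (-0.31, adjusted p = 0.0465). Thus 1 of 10 members was called at each dose, against 6.48% of all genes at 5 mg/mL (4.28% higher and 2.2% lower) and 2.93% at 2.5 mg/mL. Between 5 and 2.5 mg/mL, 0 members were called by edgeR, 0 had an unadjusted p under 0.05 and 0 were called by DESeq2 (0.374% of all genes called by edgeR), with 95% intervals reaching from -0.74 to 0.58.

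**Figure D2:**
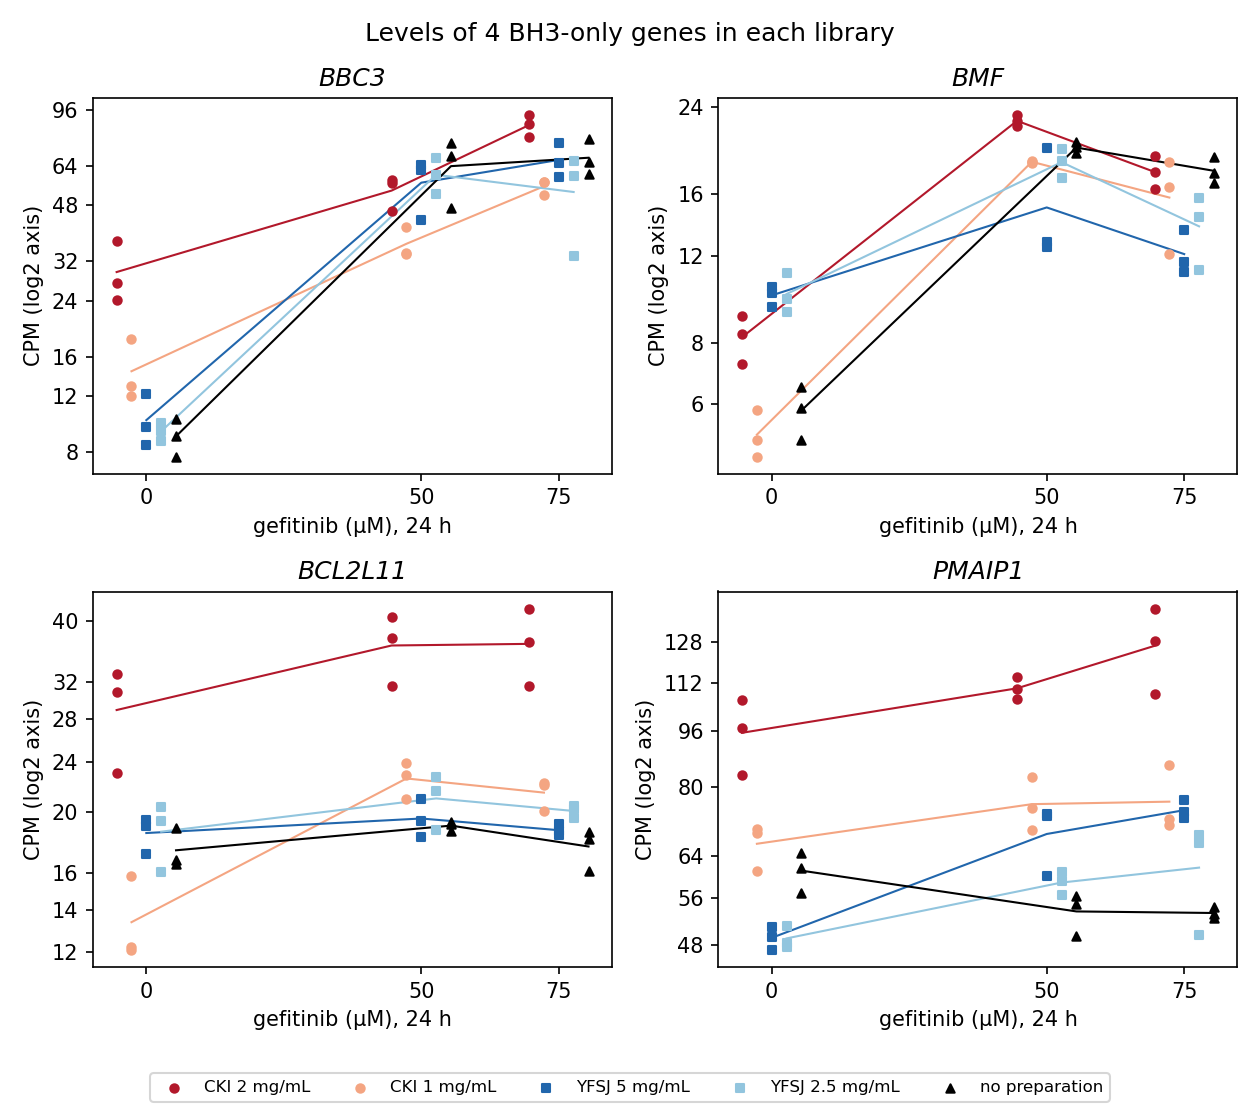
CPM (log2 axis) of 4 BH3-only genes in each library at 24 h by gefitinib dose (µM); colours give the preparation, points are shifted sideways to keep groups apart, and lines join group means of 3 libraries. BBC3 and BMF are higher with gefitinib whatever the preparation, and BCL2L11 and PMAIP1 are highest with 2 mg/mL CKI at each gefitinib dose.

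Cells given both agents were compared with untreated cells. BBC3 rose in all 10 groups that received gefitinib, by 2.02 to 3.27, and BMF by 1.05 to 1.94. The highest BBC3 level was 78.7, 87.1 and 92.6 CPM with 2 mg/mL CKI and 75 µM gefitinib, 9.61-fold above untreated cells and above every library of every other group. BCL2L11 had 41.8, 31.5 and 37.0 CPM in that group, 2.12-fold above untreated cells (1.08 ± 0.12, adjusted p = 2.03e-10). PMAIP1 had 143, 128 and 108 CPM there, 2.07-fold above untreated cells (1.05 ± 0.12, adjusted p = 2.64e-10).

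With 2 mg/mL CKI and 50 µM gefitinib, BCL2L11 rose by 1.07 ± 0.12, PMAIP1 by 0.85 ± 0.12, BBC3 by 2.58 ± 0.22 and BMF by 1.94 ± 0.16. Of the 10 members 7 were called at each of these CKI pairings, against 58.1% of all genes with 50 µM and 62.1% with 75 µM gefitinib. With 1 mg/mL CKI, 6 members were called with either gefitinib dose, against 54.9% of all genes with 50 µM and 59.8% with 75 µM. There BCL2L11 rose by 0.37 ± 0.12 (adjusted p = 0.00789) with 50 µM and by 0.30 ± 0.12 (adjusted p = 0.0302) with 75 µM gefitinib, and PMAIP1 by 0.31 ± 0.12 (adjusted p = 0.0229) and 0.32 ± 0.12 (adjusted p = 0.0166). With 75 µM these 2 calls were lost without library 1 of that group (BCL2L11 0.28, adjusted p = 0.0809, and PMAIP1 0.23, adjusted p = 0.134) or library 3 of the untreated group (BCL2L11 0.27, adjusted p = 0.0872, and PMAIP1 0.27, adjusted p = 0.0757). The BCL2L11 call was also lost in 3 further such fits, with adjusted p of 0.0533 to 0.0932. Without the ALB libraries, which leaves 1 library of that group, BCL2L11 was at 0.34. With 50 µM PMAIP1 lost its call without library 3 of that group (0.24, adjusted p = 0.117) or of the untreated group (0.26, adjusted p = 0.0985).

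The 4 YFSJ pairings called 4 to 6 members each, against 56.6% and 54.1% of all genes with 2.5 mg/mL YFSJ and 50 or 75 µM gefitinib, and 54.1% and 52.5% with 5 mg/mL. BCL2L11 was at 0.10 to 0.27 and passed in none of them. PMAIP1 passed in the pairing of 5 mg/mL YFSJ with 75 µM gefitinib, with 76.8, 72.4 and 73.8 CPM, against 64.8, 61.7 and 56.9 CPM in untreated cells (0.28 ± 0.12, adjusted p = 0.0409). That call was lost without any 1 library of either group except library 1 of the untreated group, with adjusted p up to 0.147.

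Adding CKI to gefitinib, as the mean over the 4 dose pairs, changed 5 members (63.1% of all genes). PMAIP1 rose by 0.83 ± 0.07 (adjusted p = 4.29e-13), BCL2L11 by 0.63 ± 0.08 (adjusted p = 8.58e-10), BAK1 by 0.41 ± 0.06 (adjusted p = 1.5e-07) and BCL2L1 by 0.13 ± 0.06 (adjusted p = 0.0364), while BID fell by 0.26 ± 0.07 (adjusted p = 0.00168). The calls of BCL2L1 and BID were the weak ones: BCL2L1 was at 0.11 (adjusted p = 0.133) without library 3 of 75 µM gefitinib, and BID at -0.22 (adjusted p = 0.0697) with the ALB term. Without the ALB libraries, where some pairings keep 1 library, BID was at -0.23. The rise of BCL2L11 was larger at 2 mg/mL CKI, with 0.94 at 50 µM and 1.06 at 75 µM gefitinib. At 1 mg/mL it was 0.25 (adjusted p = 0.111) and 0.28 (adjusted p = 0.0663). With library totals both values at 1 mg/mL passed (0.38, adjusted p = 0.0251, and 0.38, adjusted p = 0.0233). In a fit of only the libraries compared, that with 75 µM passed (0.28, adjusted p = 0.0187). PMAIP1 rose in each of the 4 pairs, by 0.50 to 1.25. BAK1 means were 42.9 CPM with 1 mg/mL CKI and 65.9 with 2 mg/mL beside 50 µM gefitinib, against 43.1 with that dose alone. At 75 µM they were 52.7 and 69.3, against 42.6. MCL1 was at -0.08 over the 4 pairs (adjusted p = 0.130). At 1 mg/mL CKI it fell by 0.21 (adjusted p = 0.0266) with 50 µM and 0.19 (adjusted p = 0.0430) with 75 µM. Both falls were lost in several fits without 1 library. With 2 mg/mL CKI and 75 µM MCL1 was at 0.15 (adjusted p = 0.0757). That value passed with relative log expression factors (0.18, adjusted p = 0.0341) and library totals (0.20, adjusted p = 0.0377). It also passed with only the libraries compared (0.17, adjusted p = 0.0392) and with DESeq2 (0.18, adjusted p = 0.0147). In the single pairs 31.8% and 34.6% of all genes were called at 1 mg/mL CKI and 53.6% and 58.2% at 2 mg/mL, with 50 and 75 µM gefitinib in each case. BBC3 was at -0.26 (adjusted p = 0.0576) over the 4 pairs, a value that passed in 7 of the 48 fits without 1 library, with the smallest p without library 3 of the 50 µM gefitinib group (-0.34, adjusted p = 0.0129). This mean joined pairs of either sign. In the pair of 1 mg/mL CKI and 50 µM gefitinib BBC3 fell by 0.81 ± 0.20 (adjusted p = 0.00156). With 2 mg/mL CKI and 50 µM its mean was 53.5 CPM, against 63.9 CPM with 50 µM alone. At 75 µM BBC3 was at -0.30 (adjusted p = 0.242) with 1 mg/mL CKI and at 0.34 (adjusted p = 0.128) with 2 mg/mL. Both passed in a fit of only the libraries compared (-0.30, adjusted p = 0.00458, and 0.36, adjusted p = 0.0027).

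Gefitinib added to CKI changed 6 members (50.1% of all genes). BMF rose by 1.50 ± 0.10 (adjusted p = 2.34e-16), BBC3 by 1.42 ± 0.13 (adjusted p = 4.16e-11), BCL2L11 by 0.53 ± 0.07 (adjusted p = 1.1e-07), PMAIP1 by 0.25 ± 0.07 (adjusted p = 0.00366) and MCL1 by 0.12 ± 0.05 (adjusted p = 0.0299), and BCL2L1 fell by 0.32 ± 0.06 (adjusted p = 5.86e-06). The MCL1 call was lost without library 2 of 2 mg/mL CKI (0.08, adjusted p = 0.157) and with the ALB term (0.08, adjusted p = 0.356). Without the ALB libraries, where some pairings keep 1 library, MCL1 was at 0.05. BCL2L11 rose with gefitinib by 0.75 ± 0.12 and 0.68 ± 0.12 in cells given 1 mg/mL CKI, beside 0.13 and 0.02 in cells without CKI (39% and 47.7% of all genes called with 50 and 75 µM). At 2 mg/mL CKI, where 11.1% and 30.1% of all genes were called, its changes were 0.34 (adjusted p = 0.0468) and 0.35 (adjusted p = 0.0187). The libraries overlapped, and the calls were lost without library 2 of 2 mg/mL CKI (0.20, adjusted p = 0.313, and 0.21, adjusted p = 0.192) and with the ALB term (0.25, adjusted p = 0.307, and 0.23, adjusted p = 0.365).

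YFSJ added to gefitinib changed 3 members (7.98% of all genes). PMAIP1 rose by 0.30 ± 0.07 (adjusted p = 0.00681), BCL2L1 rose by 0.21 ± 0.06 (adjusted p = 0.0153), and BMF fell by 0.36 ± 0.09 (adjusted p = 0.0067). The BCL2L1 call was lost without library 3 of 75 µM gefitinib (0.18, adjusted p = 0.0777). Among the single pairs, members were called with 5 mg/mL YFSJ and 75 µM gefitinib (3.46% of all genes), where PMAIP1 was at 0.48 ± 0.12, BCL2L1 at 0.38 ± 0.09 and BMF at -0.56 ± 0.15. Each of these calls was lost without 1 library: PMAIP1 was then as low as 0.46 (adjusted p = 0.0605), BCL2L1 0.26 (adjusted p = 0.192) and BMF -0.50 (adjusted p = 0.122). In the other 3 pairs 0 members were called by edgeR, among 0.0887% of all genes for 2.5 mg/mL YFSJ with 50 µM gefitinib, 1.83% with 75 µM, and 0.937% for 5 mg/mL with 50 µM. DESeq2 also called 0 in these pairs, and 4 values had an unadjusted p under 0.05, for BMF in both pairs named last, BCL2L1 in the first of them and PMAIP1 in the other. Without library 3 of the pairing of 5 mg/mL with 50 µM, BMF (-0.66, adjusted p = 0.00463) and PMAIP1 (0.45, adjusted p = 0.0305) passed there. Gefitinib added to YFSJ changed 9 members (69.3% of all genes): BBC3 rose by 2.60 ± 0.14, BMF by 0.55 ± 0.09, BCL2 by 0.52 ± 0.16, PMAIP1 by 0.42 ± 0.07 and MCL1 by 0.32 ± 0.05, while BAK1 fell by 0.25, BAX by 0.21, BCL2L1 by 0.18 and BID by 0.17. BBC3 rose in each of the 4 pairs, by 2.49 to 2.73. BMF rose by 0.89 and 0.46 where gefitinib at 50 and 75 µM was added to 2.5 mg/mL YFSJ (53.9% and 51.5% of all genes called), and by 0.59 where 50 µM was added to 5 mg/mL (52.9%), but was at 0.28 (adjusted p = 0.116) with 75 µM (51.4%). The BMF call with 50 µM and 5 mg/mL was lost without library 3 of that pairing (0.34, adjusted p = 0.0584), and that with 75 µM and 2.5 mg/mL without library 3 of its pairing (0.35, adjusted p = 0.0807). The changes of BAX and BID lost their calls in several fits without 1 library, among them that without the library of the highest RNR2 share (BAX -0.16, adjusted p = 0.0617, and BID -0.14, adjusted p = 0.0725), and with the largest p without library 1 of 5 mg/mL YFSJ (BAX -0.16, adjusted p = 0.127, and BID -0.14, adjusted p = 0.0972). With the ALB term BCL2 was at 0.37 (adjusted p = 0.105).

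The interaction compares the change with both agents with the sum of the 2 separate log2 changes, as a mean over 4 dose pairs. For CKI and gefitinib 3 of 10 members passed (39.5% of all genes). BBC3 rose less with both agents than the sum of its separate changes, by -1.46 ± 0.23 (adjusted p = 3.85e-06). With 2 mg/mL CKI and 75 µM gefitinib it was at 3.27, while 1.73 for CKI and 2.92 for gefitinib add to 4.65. BCL2L11 stood above the sum by 0.46 ± 0.13 (adjusted p = 0.00401) and PMAIP1 by 0.44 ± 0.12 (adjusted p = 0.00367). For BCL2L11 the excess was 0.62 and 0.66 at 1 mg/mL CKI, where CKI alone lowered it, and 0.21 (adjusted p = 0.344) and 0.33 (adjusted p = 0.116) at 2 mg/mL. BBC3 was below the sum in each of the 4 pairs, by -0.98 to -1.98, while PMAIP1 passed in 1 of them, at 2 mg/mL CKI and 75 µM gefitinib (0.60, adjusted p = 0.00293). That PMAIP1 call was lost with library totals (0.45, adjusted p = 0.0555), while at 2 mg/mL CKI and 50 µM gefitinib PMAIP1 passed with the ALB term (0.49, adjusted p = 0.0393), with only the libraries compared (0.42, adjusted p = 0.0208) and in several fits without 1 library. The BBC3 call at 1 mg/mL CKI and 75 µM gefitinib was lost with the ALB term (-0.91, adjusted p = 0.0557) and without library 2 of 1 mg/mL CKI (-0.78, adjusted p = 0.0771) or library 1 of the untreated group (-0.88, adjusted p = 0.0523). In these pairs 17.7% and 20.9% of all genes passed at 1 mg/mL CKI and 35.9% and 40.3% at 2 mg/mL.

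For YFSJ and gefitinib 2 members passed, against 1.7% of all genes. BMF fell short of the sum by -1.13 ± 0.17 (adjusted p = 4.09e-05), as it rose with each agent alone but with 5 mg/mL YFSJ and 75 µM gefitinib was at 1.05, against 2.38 for the sum. PMAIP1 stood above the sum by 0.61 ± 0.13 (adjusted p = 0.00409): with the same doses it was at 0.28 with both agents, while the separate values of -0.31 for YFSJ and -0.20 for gefitinib add to -0.51. In the single pairs BMF passed in 3, at -1.15 to -1.33, and was at -0.88 (adjusted p = 0.167) with 2.5 mg/mL YFSJ and 50 µM gefitinib. With the ALB term its call at 2.5 mg/mL and 75 µM was lost (-0.93, adjusted p = 0.162). At 2.5 mg/mL and 50 µM it passed in a fit of only the libraries compared (-0.89, adjusted p = 0.0325), with DESeq2 (-0.88, adjusted p = 0.0440) and without library 3 of the 5 mg/mL pairing at that gefitinib dose (-0.88, adjusted p = 0.0464). PMAIP1 passed at 5 mg/mL YFSJ, with 0.68 (adjusted p = 0.0481) and 0.79 (adjusted p = 0.00722) at 50 and 75 µM gefitinib, and was at 0.45 and 0.53 at 2.5 mg/mL; its call at 50 µM was lost in 32 of the 48 fits without 1 library. The shares of all genes were 0.057% and 0.431% at 2.5 mg/mL and 0.45% and 1.38% at 5 mg/mL.

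The 5 interactions that passed, for both preparations, did so in each of the 48 fits without 1 library. Leaving out the 10 ALB libraries, 2 passed for YFSJ as before, over the pairs at 5 mg/mL. For CKI no count is given, as that fit leaves 1 library in some pairings and none of 2 mg/mL CKI with 75 µM gefitinib.

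**Figure D3:**
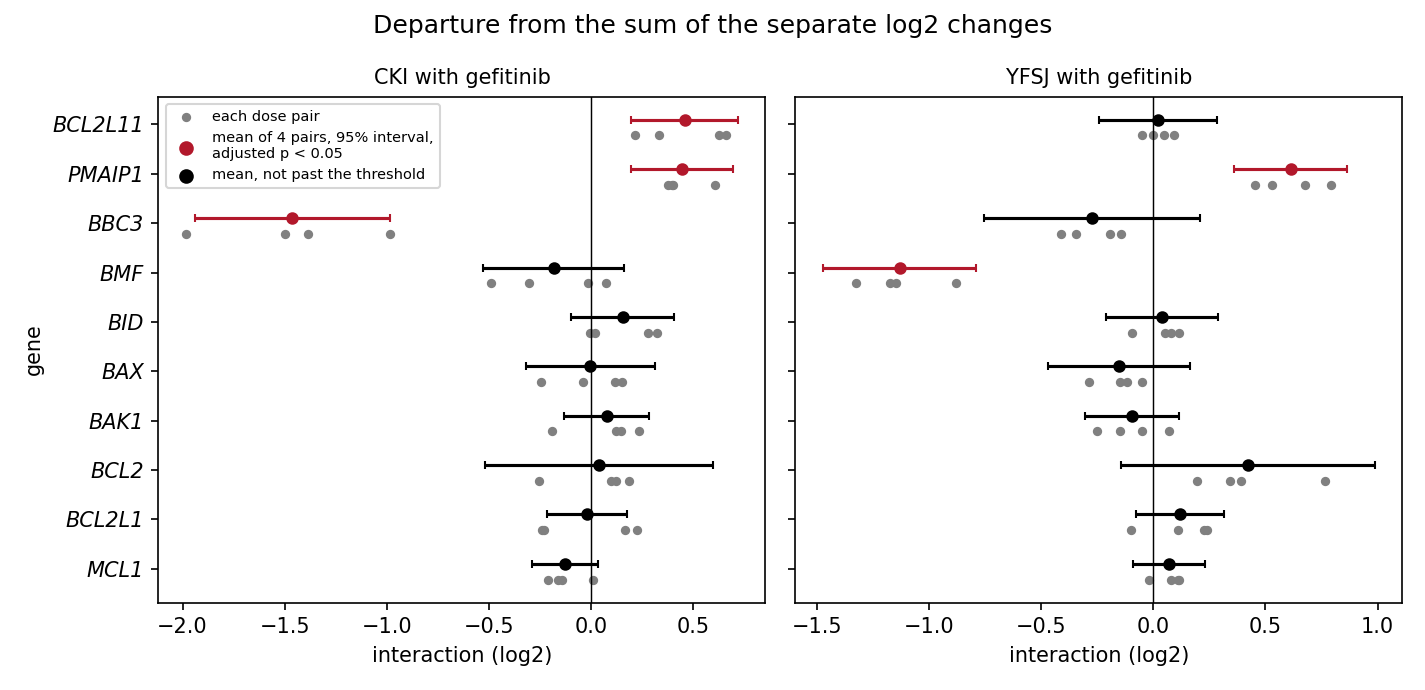
Interaction of each preparation with gefitinib on the log2 scale for the 10 members: large points are means over 4 dose pairs with 95% intervals, red at adjusted p under 0.05, and small grey points are the single pairs. BBC3 with CKI (-1.46) and BMF with YFSJ (-1.13) lie below 0, while PMAIP1 with either preparation and BCL2L11 with CKI lie above it.

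Among the effectors BAK1 moved with CKI and BAX passed against untreated cells in 0 of 14 treated groups. BAK1 had 64.8, 66.3 and 66.6 CPM with 2 mg/mL CKI, against 49.4, 44.5 and 48.7 CPM in untreated cells. It rose by 0.47 ± 0.10 (adjusted p = 6.97e-05). In the groups given 2 mg/mL CKI with 50 or 75 µM gefitinib it was 0.47 and 0.54 above untreated cells. With 50 µM gefitinib and YFSJ it fell, by 0.28 at 2.5 mg/mL (adjusted p = 0.0148) and by 0.24 at 5 mg/mL (adjusted p = 0.0322). These falls were lost without library 1 of the untreated group (-0.25, adjusted p = 0.0565, and -0.22, adjusted p = 0.102), the fall at 5 mg/mL also without library 3 of its own group (-0.20, adjusted p = 0.127) or of the untreated group (-0.23, adjusted p = 0.0832), and both with scaling by library totals (-0.15, adjusted p = 0.146, and -0.10, adjusted p = 0.366).

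BAX was at -0.28 to 0.22 over the 14 treated groups, with 95% intervals reaching from -0.58 to 0.51. It passed with 1 mg/mL CKI and 75 µM gefitinib under scaling by library totals (0.34, adjusted p = 0.0476), and with 2.5 mg/mL YFSJ and 75 µM gefitinib without library 3 of that group (-0.43, adjusted p = 0.026). The 3 lowest of its 48 values were 81.1 CPM in library 2 where 2.5 mg/mL YFSJ met 75 µM gefitinib, and 79.0 and 93.7 CPM in libraries 1 and 2 at 0 h. These libraries had RNR2 shares of 2.18%, 1.22% and 1.69% in the same order, but the libraries of 2 mg/mL CKI with 75 µM gefitinib had 1.56%, 1.39% and 1.54% with BAX at 140, 152 and 160 CPM. The part of the RNR2 share in these values was not tested.

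BID fell in 8 of 14 treated groups and rose in 0. All 14 comparisons share the 3 untreated libraries, whose mean of 33.5 ± 0.25 CPM (SD) was the highest of the 16 groups. At 0 h BID had 26.2 ± 4.19 CPM. It fell in all groups with 2 mg/mL CKI, by 0.49 to 0.59, and with 1 mg/mL CKI and gefitinib by 0.41 and 0.46, but with 1 mg/mL CKI alone was at -0.24 (adjusted p = 0.13). With scaling by library totals the falls at 1 mg/mL CKI with 50 or 75 µM gefitinib were lost (-0.17, adjusted p = 0.233, and -0.27, adjusted p = 0.0571). Without the ALB libraries, which leaves 1 library of 2 mg/mL CKI with 50 µM gefitinib, BID was at -0.37 there. In the 3 YFSJ pairings where it fell, the change was -0.29 to -0.38, and each of these calls was lost without 1 library. The largest, with 2.5 mg/mL YFSJ and 75 µM gefitinib, became -0.25 (adjusted p = 0.0866) without library 2 of that group; at 5 mg/mL and 50 µM it became -0.27 (adjusted p = 0.0872) without library 2, and at 2.5 mg/mL and 50 µM it became -0.22 (adjusted p = 0.162) without library 1.

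MCL1 rose in 8 of 14 treated groups, all with gefitinib. The largest rise was 0.38 ± 0.08 with 2 mg/mL CKI and 75 µM gefitinib (adjusted p = 3.34e-05), where its libraries had 436, 430 and 412 CPM, against 346, 325 and 313 CPM in untreated cells, without overlap. Its rise of 0.20 with 2 mg/mL CKI and 50 µM gefitinib was lost with the ALB term (0.16, adjusted p = 0.159) and without library 1 of that group (0.16, adjusted p = 0.116), among other fits. Without the ALB libraries, which leaves 1 library of that group, MCL1 was at 0.08 there. With 1 mg/mL CKI and gefitinib it was at 0.06 and 0.03, but with scaling by library totals it passed there (0.29, adjusted p = 0.00355, and 0.22, adjusted p = 0.0217) and with 2 mg/mL CKI alone (0.35, adjusted p = 0.000667, against 0.15, adjusted p = 0.104). Scaling by library totals moved the median of all genes by 0.232 and 0.195 in these pairings with 50 and 75 µM and by 0.198 with 2 mg/mL CKI, so changes of this size are relative to the scaling. With 2 mg/mL CKI alone MCL1 also passed with DESeq2 (0.16, adjusted p = 0.0366).

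BCL2L1 fell in 5 of 14 treated groups, all with gefitinib, by 0.21 to 0.32, and rose with 1 mg/mL CKI. With 1 mg/mL CKI and 50 µM gefitinib its fall of 0.26 was lost with library totals (-0.02, adjusted p = 0.859), as was that of 0.21 with 75 µM (-0.02, adjusted p = 0.872). Its fall of 0.27 with 5 mg/mL YFSJ and 50 µM gefitinib was lost with library totals (-0.12, adjusted p = 0.284) and without library 3 of that group (-0.18, adjusted p = 0.125) or of the untreated group (-0.23, adjusted p = 0.0601). BCL2 passed against untreated cells in 0 of 14 groups, at -0.30 to 0.47, with 95% intervals reaching from -0.84 to 0.97; with library totals it passed with 1 mg/mL CKI and 75 µM gefitinib (0.66, adjusted p = 0.022).

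**Figure D4:**
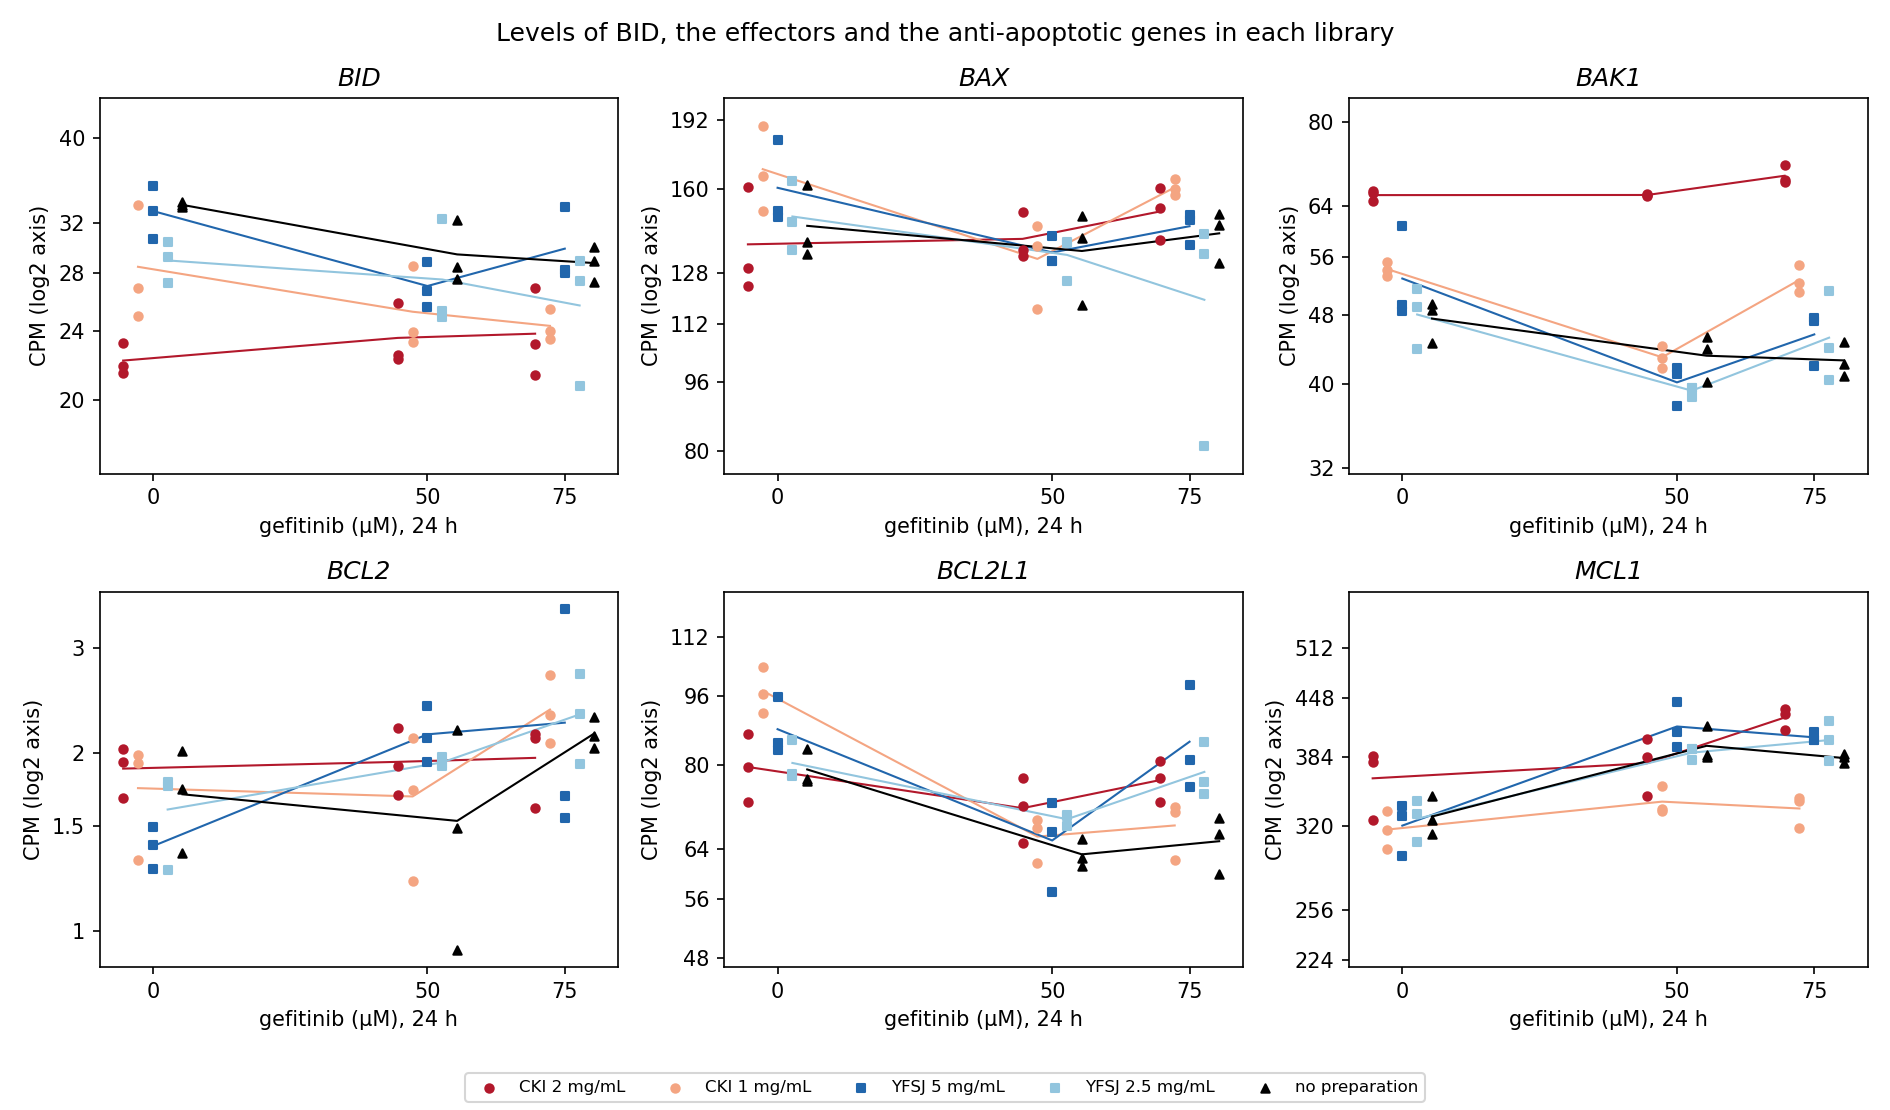
CPM (log2 axis, a separate range in each panel) of BID, the effectors and the anti-apoptotic genes in each library at 24 h by gefitinib dose (µM); colours give the preparation, points are shifted sideways to keep groups apart, and lines join group means of 3 libraries. BAK1 stands apart with 2 mg/mL CKI, from 64.8 to 71.3 CPM at the 3 gefitinib doses, and the 3 BCL2 values of a group spread widely at its low counts.

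The order of the 16 group means differed between members. For BBC3 it ran 13.5-fold, from 86.1 ± 7.0 CPM (SD, n = 3) with 2 mg/mL CKI and 75 µM gefitinib to 6.38 ± 1.5 CPM at 0 h. The top group did not overlap with the next, 75 µM gefitinib alone at 67.9 ± 9.0 CPM, and the groups from there down to 2 mg/mL CKI at 29.6 ± 6.74 CPM each overlapped with their neighbour. CKI at 2 mg/mL did not overlap with 1 mg/mL at 14.4 ± 3.3 CPM, below which YFSJ alone and the untreated groups overlapped in turn. For BMF the order ran 4.32-fold, from 22.5 ± 0.59 CPM with 2 mg/mL CKI and 50 µM gefitinib, which did not overlap with 50 µM gefitinib alone at 19.9 ± 0.51 CPM, to 5.21 ± 0.58 CPM with 1 mg/mL CKI alone. All 10 BMF means with gefitinib were above the 6 without, of which the highest was 10.0 ± 0.92 CPM with 2.5 mg/mL YFSJ.

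For BCL2L11 the span was 2.75-fold. The 3 groups with 2 mg/mL CKI came first, at 36.8 ± 5.15, 36.6 ± 4.64 and 28.9 ± 5.23 CPM with 75, 50 and 0 µM gefitinib, and 1 mg/mL CKI alone came last at 13.4 ± 2.11 CPM, with each of its libraries below those of untreated cells at 24 h. Every pair of neighbours between them overlapped. For PMAIP1 the span was 2.58-fold, from 126.5 ± 17.3 CPM with 2 mg/mL CKI and 75 µM gefitinib to 49.1 ± 1.79 CPM with 2.5 mg/mL YFSJ, and the same 3 CKI groups led. The other 6 members spanned 1.77-fold (BAK1), 1.70-fold (BCL2), 1.62-fold (BAX), 1.55-fold (BCL2L1), 1.51-fold (BID) and 1.34-fold (MCL1).

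Between the untreated groups at 24 h and 0 h, 4 members passed (25.2% of all genes). BAX was higher at 24 h by 0.47 ± 0.15 (adjusted p = 0.0164) and BID by 0.35 ± 0.12 (adjusted p = 0.0238), and MCL1 and BCL2L1 were lower by 0.32 ± 0.08 (adjusted p = 0.00202) and 0.31 ± 0.09 (adjusted p = 0.0114). BAX had 135, 139 and 162 CPM at 24 h, against 79.0, 93.7 and 140 CPM at 0 h, so the groups overlapped through library 3 at 0 h. With that library as the only one at 0 h, assumed to vary like the other groups, none of the 4 passed. BAX was then at 0.05 and BID at 0.14, while MCL1 at -0.25 and BCL2L1 at -0.30 stayed close to their values with all 3 libraries. Leaving out single libraries also ended calls: BAX was at 0.31 (adjusted p = 0.224) and BID at 0.25 (adjusted p = 0.242) without library 1 at 0 h, and at 0.40 (adjusted p = 0.089) and 0.35 (adjusted p = 0.0647) without library 2 at 0 h, and BCL2L1 at -0.29 (adjusted p = 0.0508) without library 2 at 24 h. BID also lost its call without library 2 or 3 at 24 h, with adjusted p of 0.0558 and 0.0578, and BAX without library 3 at 24 h (0.39, adjusted p = 0.0882). Without library 3 at 0 h BAX was at 0.75, and BAK1 (-0.41, adjusted p = 0.000237) and PMAIP1 (0.30, adjusted p = 0.0395) passed as well.

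Other genes of the pathway were read from 5 lists, with 75 µM gefitinib, 2 mg/mL CKI and 5 mg/mL YFSJ each set against untreated cells. Of 12 further BCL2 family genes 10 were tested. HRK, a BH3-only gene studied mostly in neurons, rose by 3.41 ± 0.16 with gefitinib (adjusted p = 3.11e-22) and by 2.80 ± 0.16 with CKI (adjusted p = 2.43e-18). In that list 2 rose and 2 fell with gefitinib (54.7% of all genes called), where BCL2L12 (-0.74) and BNIP3, a mitophagy receptor gene (-0.70), fell; 3 rose and 2 fell with CKI (51.2%), where the BH3-only gene BIK (1.50) and BCL2L10 (1.34) rose; with YFSJ 0 of 10 passed (6.48%). The median changes of this list were -0.04 with gefitinib and -0.03 with CKI, against 0.02 and -0.01 over all genes.

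Of 12 transcription factor genes known to act upstream of BH3-only genes, 8 rose and 3 fell with each of gefitinib and CKI, and 0 rose and 2 fell with YFSJ, against 54.7%, 51.2% and 6.48% of all genes called in either direction. E2F1 fell by 2.10 ± 0.11 with gefitinib and by 1.02 ± 0.11 with CKI. FOXO4 rose by 1.58 ± 0.12 and ATF3, a stress-induced factor, by 1.95 ± 0.16 with gefitinib. With CKI ATF3 rose by 3.66 ± 0.16 and DDIT3, the gene of the stress factor CHOP, by 2.43 ± 0.21. MYC fell by 0.83 ± 0.14 and JUN by 0.48 ± 0.13 with YFSJ. The list's median was 0.51 with gefitinib, 0.75 with CKI and -0.07 with YFSJ, against 0.02, -0.01 and -0.01 over all genes.

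Of 15 genes of the apoptosome, the caspases and their inhibitors, 5 rose and 6 fell with gefitinib, 7 rose and 6 fell with CKI, and 1 rose with YFSJ (54.7%, 51.2% and 6.48% of all genes called). BIRC5, the survivin gene, fell by 2.20 ± 0.13 with gefitinib and by 1.23 ± 0.12 with CKI. CYCS, the cytochrome c gene, fell by 1.31 ± 0.09 and CASP9, the initiator caspase of the apoptosome, rose by 1.07 ± 0.12 with gefitinib. BIRC3, the gene of the inhibitor cIAP2, rose by 2.22 ± 0.24 with CKI and by 2.18 ± 0.24 with YFSJ (adjusted p = 1.98e-08). The list's median was -0.11 with gefitinib, 0.05 with CKI and 0.03 with YFSJ, beside 0.02, -0.01 and -0.01 for all genes.

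Of 10 genes of death receptors and the caspase 8 arm, 4 rose and 1 fell with gefitinib, 2 rose and 4 fell with CKI, and 1 rose with YFSJ, where the same shares of all genes (54.7%, 51.2% and 6.48%) were called. TNFRSF10B, which encodes the TRAIL receptor DR5, rose by 0.84 ± 0.10 with gefitinib and by 1.08 ± 0.10 with CKI. TNFRSF10A, the gene of its relative DR4, rose by 1.26 ± 0.11 with CKI and by 0.46 ± 0.12 with YFSJ. CFLAR, an inhibitor of caspase 8, rose by 0.71 ± 0.08 with gefitinib. The list's median was 0.21 with gefitinib, -0.05 with CKI and 0.13 with YFSJ (all genes 0.02, -0.01 and -0.01). Of 8 genes of MCL1 turnover and mitochondrial partners 5 fell with gefitinib, 1 rose and 5 fell with CKI, and 0 passed with YFSJ, beside the shares of all genes just given. VDAC1, a channel of the outer mitochondrial membrane, fell by 0.97 ± 0.08 with gefitinib and by 0.48 ± 0.07 with CKI, and FBXW7, a ubiquitin ligase subunit that targets MCL1, rose by 0.62 ± 0.10 with CKI. The list's median was -0.44 with gefitinib, -0.33 with CKI and -0.10 with YFSJ, against the same medians of all genes.

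As a description, the tested genes whose mean log2 CPM followed each member most closely over the 16 groups were listed by Pearson's r, among 11885 others with at least 5 CPM in their highest group (11886 for BCL2). The 16 points share libraries, treatments and depth. For BBC3 they were MKNK2 (r = 0.985) and UAP1L1 (0.985), for PMAIP1 RASD1 (0.967) and ZNF23 (0.962), for BCL2L11 ZNF263 (0.950) and ZNF844 (0.947), and for BMF C3orf18 (0.923) and TJP3 (0.907). The closest genes were MED19 for BAK1 (0.959), CD81 for BID (0.944), TRPV2 for BCL2L1 (0.940), FAM117B for MCL1 (0.903) and NPW for BAX (0.892). BCL2 had the loosest match, SLC31A2 (0.802).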

How the data were processed

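The authors deposited raw counts per gene symbol for 48 libraries, made from unstranded paired-end reads (PureLink RNA kit and NEBNext Ultra kit, per the labels' protocols). The submitters' processing notes name Trim Galore 0.4.2, STAR 2.5.3a, edgeR and the build hg19; the counting tool, annotation and strand setting are not given in the sources used here. All columns were mapped to samples by their titles. The fit used edgeR 4.0.16 in R 4.3.3: filterByExpr (minimum count 10, minimum total 15) kept 15789 genes holding 99.97% of counts, followed by TMM factors and a quasi-likelihood fit with 1 mean per group (common biological coefficient of variation 0.102, 32 residual degrees of freedom). Each comparison was a two-sided contrast with Benjamini-Hochberg adjustment across all 15789 genes, with a call at adjusted p under 0.05. The SE is the log2 fold change divided by the square root of F, and 95% intervals use the fit's degrees of freedom. CPM are counts relative to totals scaled by TMM factors.

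The members and the pathway lists were chosen with earlier results of these data known. All members are named, and per list and single agent at most 3 called genes with the smallest p. Alternatives were relative log expression factors, library totals, DESeq2 1.42.0, no filter, a replicate block, only the libraries compared, adjusted p under 0.01, a term for libraries with over 1000 ALB counts, each library left out in turn, and only library 3 at 0 h. Leaving out the 10 ALB libraries, or the 3 libraries with the highest RNR2 share, was added after seeing the data; averages were then taken over the dose pairs that remained. Gene overlaps and lengths came from GENCODE 29 (GRCh38), promoter windows from RefSeq (GRCh38.p14), matched by symbol; the counts were made on hg19. Every pair of replicates differed beyond sampling noise (chi-square statistic per gene of at least 3.723).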

Additional observations from a re-analysis of the deposited data

Results flagged for a closer look

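In 5 results the change with gefitinib differed between cells with and without a preparation, by the interaction term of the edgeR fit as a mean over 4 dose pairs. BBC3 with CKI was at -1.46 (adjusted p = 3.85e-06), BCL2L11 with CKI at 0.46 (adjusted p = 0.00401) and PMAIP1 with CKI at 0.44 (adjusted p = 0.00367). BMF with YFSJ was at -1.13 (adjusted p = 4.09e-05) and PMAIP1 with YFSJ at 0.61 (adjusted p = 0.00409). All 4 dose pairs had the sign of the mean in each of these 5 results. The pairs share the untreated libraries and libraries of the single agents, so their signs are not independent. The cause of these differences was not tested.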

How the results depend on the processing

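The counts of values here cover the 10 members in the 24 main comparisons and not the single dose pairs. No called value of a member changed sign under any alternative run. Over the alternatives other than leaving out 1 library, 827 of 917 values of the 104 called results stayed past the threshold and 90 did not, and 21 of 1173 values of the 136 results not called passed it. Over the fits without 1 library, 4893 of 4992 called values stayed past it and 23 of 6528 others passed it. Each of the 48 libraries was left out for every comparison, also where it was in none of the groups compared. Such fits keep the compared libraries whole, so these counts understate how much calls depend on single libraries.

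The number of members called changed by more than 1.5 times as follows. The fit with only library 3 at 0 h is left out here, as its values are given above. Calls over all genes were not counted at adjusted p under 0.01 or in fits without 1 library. For 24 h against 0 h, 4 became 0 in a fit of only those libraries and 1 at adjusted p under 0.01. In the fit of only those libraries 155 of 15789 genes were called, against 3980 in the main fit, so calls fell over all genes as well. For 2.5 mg/mL YFSJ, 1 became 0 with the ALB term, which covers the whole group. Over all genes 463 became 48 with that term. At adjusted p under 0.01, counts became 2 of 4 for 75 µM gefitinib, 0 of 3 for 1 mg/mL CKI, 3 of 6 for 1 mg/mL CKI with 75 µM gefitinib, 3 of 5 for 2.5 mg/mL YFSJ with 50 µM gefitinib, 3 of 6 for 5 mg/mL YFSJ with 50 µM gefitinib and 4 of 8 for 2 against 1 mg/mL CKI.

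Leaving out 1 library gave 2 to 6 members for 24 h against 0 h, 2 to 4 for 75 µM gefitinib (2 without library 3 of untreated cells), 1 to 3 for 1 mg/mL CKI (1 without its library 2 or library 1 of untreated cells), 1 to 2 for 5 mg/mL YFSJ (2 without library 3 at 0 h), 3 to 6 for 1 mg/mL CKI with 75 µM gefitinib and for 5 mg/mL YFSJ with 50 µM gefitinib (both 3 without library 3 of untreated cells, the second also without its own library 3), and 4 to 8 for 2 against 1 mg/mL CKI.

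Replicate numbers were tested as a block. Deviations of same-numbered libraries correlated at -0.283 to 0.285, and all 3 pairs were over 0.1 in 1 of 18 comparisons, so the numbers were not taken to pair samples. With the replicate block, BCL2L11 with 2.5 mg/mL YFSJ and 50 µM gefitinib passed (0.27, adjusted p = 0.0432), as did the PMAIP1 interaction of 2 mg/mL CKI with 50 µM gefitinib (0.40, adjusted p = 0.0476), no call was lost, and no count moved by over 1.5 times.

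Leaving out the 10 ALB libraries gave no value for groups wholly in that set. It left 1 library each for 1 mg/mL CKI with 75 µM and 2 mg/mL CKI with 50 µM gefitinib. Results using these groups are given here as sizes. The CKI averages then lacked the pair of 2 mg/mL CKI and 75 µM gefitinib. For CKI added to gefitinib BID was -0.23, BCL2L1 0.16 and MCL1 -0.18, against -0.26, 0.13 and -0.08 with all libraries. With all libraries MCL1 was at -0.21 and -0.19 in the pairs with 1 mg/mL CKI and 0.15 in the pair left out. For gefitinib added to CKI MCL1 was 0.05, against 0.12. Gefitinib added to YFSJ, over the pairs at 5 mg/mL, called 7 members and 8804 of 15789 genes, against 9 and 10942 with all libraries. BCL2 had 15 to 76 counts per library, which limits its precision.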
